A study of Mus musculus with 6 samples.

Results

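Glycolysis and hypoxia response genes were followed in cultured mouse myeloid-derived suppressor cells (MDSCs) given mitochondrial DNA. The set holds 32 genes, chosen by name for their place in glycolysis or in the response to low oxygen, among the 55359 genes of the count table. In one group mitochondrial DNA (mtDNA), 250 ng/ml, was transfected with a lipid reagent for 12 h. The other group is labelled blank. Both started from C57BL/6 bone marrow grown for 4 days in 40 ng/ml of GM-CSF and 40 ng/ml of IL-6, from which polymorphonuclear MDSCs were taken with an isolation kit. Nothing in the labels tells if blank cells had the reagent, or if each library stands for a mouse or culture of its own. The p-values thus rest on a spread between libraries that may be technical, and an effect of the DNA cannot be told apart from one of the reagent.

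Each group had 3 libraries of polyA RNA, with 4018360 to 4911103 counts each. Expression is given in CPM, counts scaled to 1000000 per library. Isg15, which encodes an interferon-induced ubiquitin-like protein and checks the labels, had 277, 227 and 211 CPM in the mtDNA libraries, against 17.0, 9.22 and 11.0 CPM in the blank libraries (edgeR adjusted p = 5.53e-16). Ifnb1, which encodes interferon beta, had 37 reads in mtDNA cells and 0 in blank cells. The neutrophil genes S100a8, S100a9 and Mmp8 were abundant in both groups, but Ly6g, which defines the polymorphonuclear fraction in mice, had only 78 reads in mtDNA and 65 in blank libraries. Genes of monocytes and macrophages were also present. The 10 markers listed for them summed to 4624 to 4845 CPM in mtDNA libraries and 3907 to 4026 CPM in blank libraries, and 5 of the 10 rose, Ly6c2 the most (log2 fold change 0.85 ± 0.054, SE). None of the 10 was at 0. The 12 neutrophil markers summed to 8297 to 8913 CPM in mtDNA and 7937 to 8353 CPM in blank libraries, with 1 of the 12 higher. Of 8 markers each, 0 of 5 tested were called for dendritic cells and 0 of 4 for lymphocytes, 1 rose and 1 fell for eosinophils, basophils and mast cells, and 1 of 4 tested rose for stroma and endothelium. The last was Kdr, with 805 reads in mtDNA and 154 in blank libraries (log2 2.40 ± 0.12, SE, edgeR adjusted p = 1.14e-12). Cdh5, also listed there, had 10 and 5 reads. The dendritic cell markers summed to 755 to 762 CPM in mtDNA and 720 to 734 CPM in blank libraries. Those of eosinophils, basophils and mast cells summed to 224 to 244 CPM in mtDNA and 206 to 229 CPM in blank libraries. The 8 erythroid markers summed to 1.02 to 3.21 CPM in mtDNA and 2.39 to 4.61 CPM in blank libraries. Beside these counts of markers, 11.9% of all tested genes were called higher and 5.98% lower (edgeR adjusted p under 0.05). In such bulk samples a change in the mix of cells and a change of RNA per cell cannot be told apart, and the part of the monocyte markers in the results below was not tested.

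Glycolysis turns glucose into pyruvate, which is reduced to lactate or oxidised in mitochondria. Its flux is set mainly at glucose uptake, hexokinase and phosphofructokinase, while the enzymes between and after these steps work near equilibrium and are made in abundance. Mature neutrophils draw most of their ATP from it. When oxygen falls, prolyl hydroxylases stop marking the transcription factor subunit HIF1A for destruction, and HIF1A then raises the transcription of glucose carriers, glycolytic enzymes and genes such as Bnip3, Egln3 and P4ha1. Inflammatory signals can also raise Hif1a mRNA in myeloid cells.

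Most of the set did not pass the test, and the few genes that did all rose. Of the 32 members, all of which passed the expression filter, 5 were higher in mtDNA cells at an edgeR adjusted p under 0.05 and 0 were lower. They were P4ha1, Hk3, Pfkp, Pfkfb3 and Pfkfb4, with rises of 1.22-fold to 1.54-fold. Among all 11190 genes tested, 11.9% were called higher and 5.98% lower, so the share of members that rose, 15.6%, was close to that of genes at large. The median log2 fold change was 0.01 over the members and -0.01 over all tested genes. At an unadjusted p under 0.05, 6 members were higher and 3 lower. DESeq2 called 4 higher and 0 lower, and limma-voom 5 and 1. All 3 mtDNA libraries lay above all 3 blank libraries for 8 members and below them for 7, beside 17.9% and 15.6% of all tested genes.

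**Figure D1:**
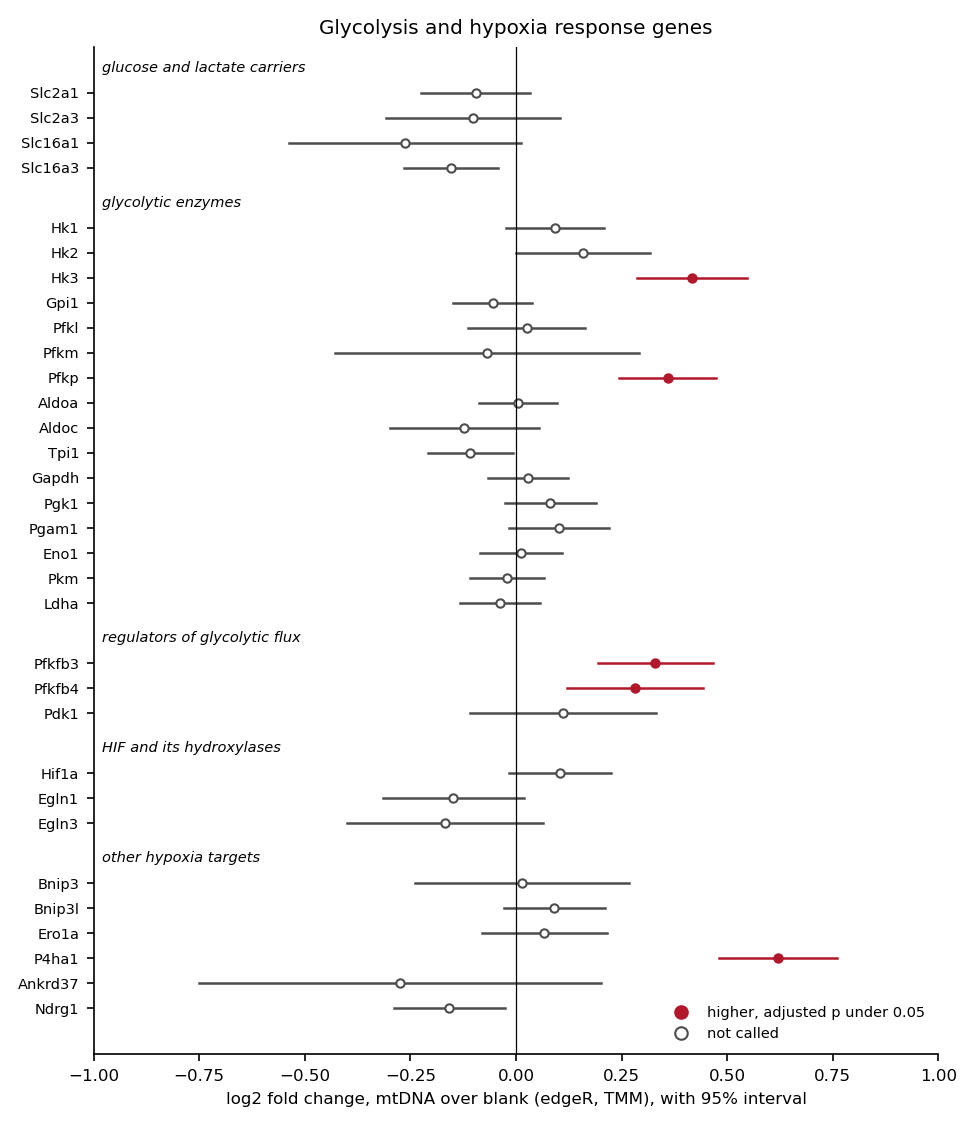
Log2 fold change of each member, mtDNA over blank, on the x axis, with its 95% interval as a line, grouped by role from top to bottom. Filled red points mark the 5 genes called higher (adjusted p under 0.05), from 0.28 for Pfkfb4 to 0.62 for P4ha1, and open points mark the 27 genes that were not called.

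P4ha1 rose the most. It encodes the catalytic subunit of collagen prolyl 4-hydroxylase, an enzyme of the endoplasmic reticulum, and is a known target of HIF. It had 113, 106 and 113 CPM in the mtDNA libraries, against 68.7, 71.7 and 75.0 CPM in the blank libraries. Even the lowest mtDNA library stood well above the highest blank library. The log2 fold change was 0.62 ± 0.067 (SE; 1.54-fold, edgeR adjusted p = 2.93e-07). It passed the threshold in each of the 15 alternative fits, with log2 fold changes of 0.50 to 0.65.

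The genes grouped with P4ha1 as further hypoxia targets, Bnip3, Bnip3l, Ero1a, Ndrg1 and Ankrd37, were not called. HIF also raises genes of other roles in the set, such as glucose carriers and glycolytic enzymes, which are given below. Bnip3 and Bnip3l, which encode receptors for the removal of mitochondria, averaged 21.2 ± 1.36 and 171 ± 7.96 CPM in mtDNA cells, against 21.0 ± 1.45 and 161 ± 2.99 CPM in blank cells (SD, n = 3 libraries per group). Their log2 fold changes were 0.01 ± 0.12 and 0.09 ± 0.058 (SE; edgeR adjusted p = 0.957 and 0.318). Ero1a, an oxidase that forms disulfide bonds in the endoplasmic reticulum, had 105, 95.7 and 116 CPM in mtDNA and 98.4, 101 and 103 CPM in blank libraries, and the groups overlapped (log2 0.07 ± 0.071, edgeR adjusted p = 0.574). Ndrg1, a gene induced by hypoxia and by stress, had 117, 126 and 113 CPM in mtDNA libraries, against 133, 137 and 126 CPM in blank libraries. The mtDNA values were all below the blank ones, by a margin of less than 1 CPM between the nearest libraries, and the change missed the threshold (log2 -0.16 ± 0.064, edgeR adjusted p = 0.0949). Ankrd37, an ankyrin repeat gene, was thinly counted, with 68 reads in mtDNA and 83 in blank libraries, and its 95% interval ran from -0.75 to 0.20 on the log2 scale.

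Promoter sequences are shown for the 5 genes that rose, because HIF binds a short core, ACGTG or GCGTG, and interferon-activated factors bind the interferon-stimulated response element, searched as GAAA, any 2 bases and GAAA. Ldha is added as a known HIF target that was not called. Each window holds the 250 bases before a RefSeq start site (build GRCm38.p6, 5′ to 3′ on the gene's strand), and capitals mark matches to these motifs on either strand.
P4ha1 promoter, chr10:59323046-59323295, plus strand: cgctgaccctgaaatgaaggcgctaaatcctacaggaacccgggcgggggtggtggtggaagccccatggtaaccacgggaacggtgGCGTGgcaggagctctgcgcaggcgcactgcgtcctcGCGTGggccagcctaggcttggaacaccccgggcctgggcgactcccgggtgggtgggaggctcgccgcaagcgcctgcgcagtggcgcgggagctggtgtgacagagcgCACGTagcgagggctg
Hk3 promoter, chr13:55021386-55021635, minus strand: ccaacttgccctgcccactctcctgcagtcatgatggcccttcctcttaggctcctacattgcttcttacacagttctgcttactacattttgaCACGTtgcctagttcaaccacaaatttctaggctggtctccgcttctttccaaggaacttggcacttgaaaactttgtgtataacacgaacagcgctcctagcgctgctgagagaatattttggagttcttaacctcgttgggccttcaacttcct
Pfkp promoter, chr13:6648772-6649021, minus strand: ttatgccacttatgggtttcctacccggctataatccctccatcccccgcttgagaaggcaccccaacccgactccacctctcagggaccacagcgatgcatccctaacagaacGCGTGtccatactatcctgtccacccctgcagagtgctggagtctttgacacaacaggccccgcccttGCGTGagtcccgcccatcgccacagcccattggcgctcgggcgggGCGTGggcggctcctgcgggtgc
Pfkfb3 promoter, chr2:11553930-11554179, minus strand: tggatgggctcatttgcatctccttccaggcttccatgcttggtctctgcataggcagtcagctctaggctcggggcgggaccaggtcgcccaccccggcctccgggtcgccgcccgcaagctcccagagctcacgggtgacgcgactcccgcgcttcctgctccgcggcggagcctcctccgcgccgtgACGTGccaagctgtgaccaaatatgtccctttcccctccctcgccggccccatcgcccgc
Pfkfb4 promoter, chr9:108991652-108991901, plus strand: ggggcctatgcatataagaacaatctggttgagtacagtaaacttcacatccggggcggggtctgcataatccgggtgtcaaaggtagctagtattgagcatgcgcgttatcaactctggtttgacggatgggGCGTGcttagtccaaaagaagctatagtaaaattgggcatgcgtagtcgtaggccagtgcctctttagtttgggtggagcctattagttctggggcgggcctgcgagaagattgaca
Ldha promoter, chr7:46845554-46845803, plus strand: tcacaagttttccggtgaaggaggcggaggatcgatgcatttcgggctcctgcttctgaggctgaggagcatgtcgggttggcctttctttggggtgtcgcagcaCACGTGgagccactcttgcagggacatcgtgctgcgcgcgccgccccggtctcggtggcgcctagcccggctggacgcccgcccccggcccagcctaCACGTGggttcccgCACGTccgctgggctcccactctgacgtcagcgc
Pfkfb3 and Ldha each have another window in the table, not shown. The windows of the 5 genes held 1 to 3 matches to the HIF core each, and that of Ldha 5, since a CACGTG is read on both strands.

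A window was found for 29 of the 32 members, 42 windows in all, some of which overlap. The letters ACGTG were in 52.4% of the members' windows and in 16.6% of all 32851 windows, and GCGTG was in 54.8% and 28.2%. Either one was in 35 of the 42 windows and in 38.6% of all windows. Many members are textbook HIF targets and were picked as such, so this share is not a result of the mtDNA comparison. The windows were not matched for base composition, and the cause of the difference was not tested. The interferon element was in 0 of the 42 windows and in 2.98% of all windows. At such a share 42 windows hold few matches, so the 0 does not set the members apart.

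At the hexokinase step, which traps glucose in the cell as glucose 6-phosphate, only the myeloid form was called. Hk3 had 446, 400 and 396 CPM in mtDNA libraries, against 341, 288 and 302 CPM in blank libraries. The groups did not overlap, and the log2 fold change was 0.42 ± 0.063 (SE; 1.33-fold, edgeR adjusted p = 3.4e-05). Hk1, the widely expressed form, averaged 219 ± 9.04 and 206 ± 6.64 CPM (log2 0.09 ± 0.056, edgeR adjusted p = 0.291) in mtDNA and blank cells. Hk2, the form induced by insulin and by HIF in other tissues, had 80.7, 92.5 and 78.3 CPM in mtDNA libraries and 71.6, 78.3 and 75.4 CPM in blank libraries. Its groups touched at 78.3 CPM and it was not called (log2 0.16 ± 0.076, edgeR adjusted p = 0.169).

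Hexokinase 3 was also the leading form. Per kilobase of exon it took 75.4%, 73.1% and 73.0% of the hexokinase reads in mtDNA libraries, against 72.3%, 67.8% and 68.6% in blank libraries. This share is formed within each library and so does not depend on the scaling between libraries. The mtDNA shares were all higher, but mtDNA 3 and blank 1 lay less than 1 percentage point apart. The difference of means was 4.25 percentage points, and 3.37 without blank 2. The size of the share depends on the gene length used. With the longest coding transcript of each gene, Hk3 took 65.9% in mtDNA and 60.9% in blank cells. With no division by length it took 57.7% and 52.5%.

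At the phosphofructokinase step, which commits sugar to glycolysis, the platelet-type gene rose and the others were not called. Pfkp had 233, 216 and 229 CPM in mtDNA libraries, against 176, 172 and 181 CPM in blank libraries. The groups were clearly apart (log2 0.36 ± 0.056, SE; 1.28-fold, edgeR adjusted p = 4.88e-05). Pfkl, the liver-type gene, had 102, 108 and 117 CPM in mtDNA and 105, 105 and 112 CPM in blank libraries, with overlapping groups (log2 0.03 ± 0.067, edgeR adjusted p = 0.842). Pfkm, the muscle-type gene, was low, with 135 reads in mtDNA and 143 in blank libraries. Its interval ran from -0.43 to 0.29 on the log2 scale. The uncalled difference of Hk2 (0.16) lies within this interval and the rise of Pfkp (0.36) outside it. A difference between genes was not itself tested.

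Per kilobase of exon, Pfkp made up 49.2%, 45.0% and 45.5% of the phosphofructokinase reads in mtDNA libraries, against 41.2%, 40.0% and 40.5% in blank libraries. Pfkl made up 43.3%, 45.3% and 46.8% in mtDNA and 49.3%, 49.2% and 50.5% in blank libraries. Thus Pfkl was ahead of Pfkp in every blank library, and Pfkp was ahead in mtDNA 1 only. Which of the pair leads depends on the gene length used: with the longest coding transcript of each gene, Pfkp took 62.5% in mtDNA and 56.7% in blank cells. The difference between groups hardly moved (5.80 against 6.02 percentage points).

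**Figure D2:**
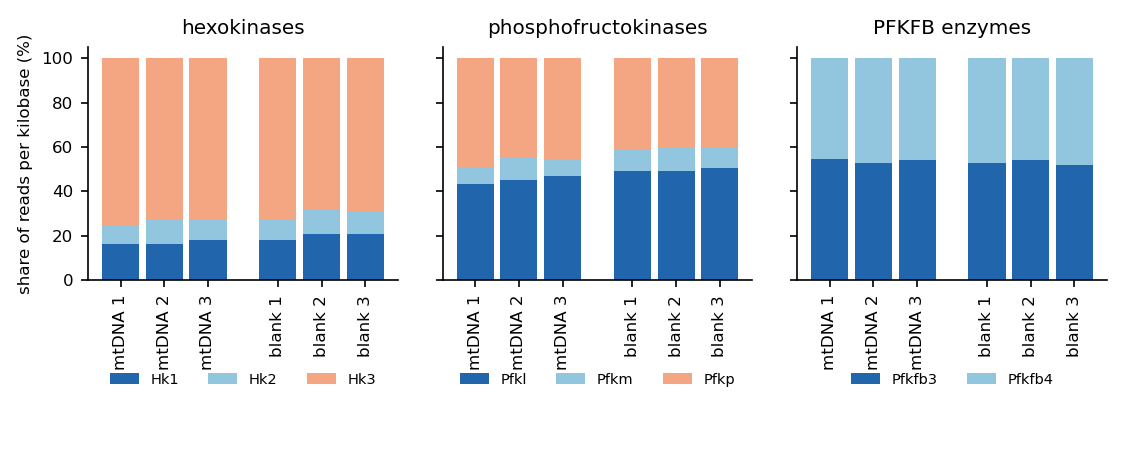
Share of reads per kilobase of exon (y axis, percent of the family) taken by each gene in each library (x axis), mtDNA libraries to the left of blank ones. The Hk3 band spans 73.0% to 75.4% in mtDNA and 67.8% to 72.3% in blank libraries, the Pfkp band 45.0% to 49.2% and 40.0% to 41.2%, and the bands of Pfkfb3 and Pfkfb4 overlap between groups.

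Both genes of the set that encode the bifunctional enzymes setting fructose 2,6-bisphosphate, the strongest activator of phosphofructokinase, rose. Pfkfb3, whose product mostly makes this activator, had 123, 109 and 116 CPM in mtDNA libraries, against 90.2, 92.8 and 93.3 CPM in blank libraries. The log2 fold change was 0.33 ± 0.065 (SE; 1.26-fold, edgeR adjusted p = 0.000829). Pfkfb4 had 65.9, 63.4 and 63.3 CPM in mtDNA libraries, against 51.8, 50.7 and 56.1 CPM in blank libraries, with a smaller rise of 0.28 ± 0.077 (1.22-fold, edgeR adjusted p = 0.0135). The groups of both genes were apart. The call of Pfkfb4 ended in DESeq2 (adjusted p = 0.155), without blank 2 (0.0654), with upper-quartile factors (0.0609) and with library totals (0.126). The split between the pair stayed within the spread, with Pfkfb3 at 53.8% ± 1.02 of their reads per kilobase in mtDNA and 52.9% ± 1.19 in blank cells. Pfkfb1 and Pfkfb2, of the same family but outside the set, were thinly counted and not called. Their log2 fold changes were -0.18 ± 0.30 and -0.20 ± 0.23 (SE; edgeR adjusted p = 0.749 and 0.618). Pdk1, a kinase that shuts pyruvate out of mitochondrial oxidation, had 41.9, 49.7 and 49.3 CPM in mtDNA and 44.3, 49.7 and 36.3 CPM in blank libraries. Its spread was wide in both groups and it was not called (log2 0.11 ± 0.11, edgeR adjusted p = 0.528).

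**Figure D3:**
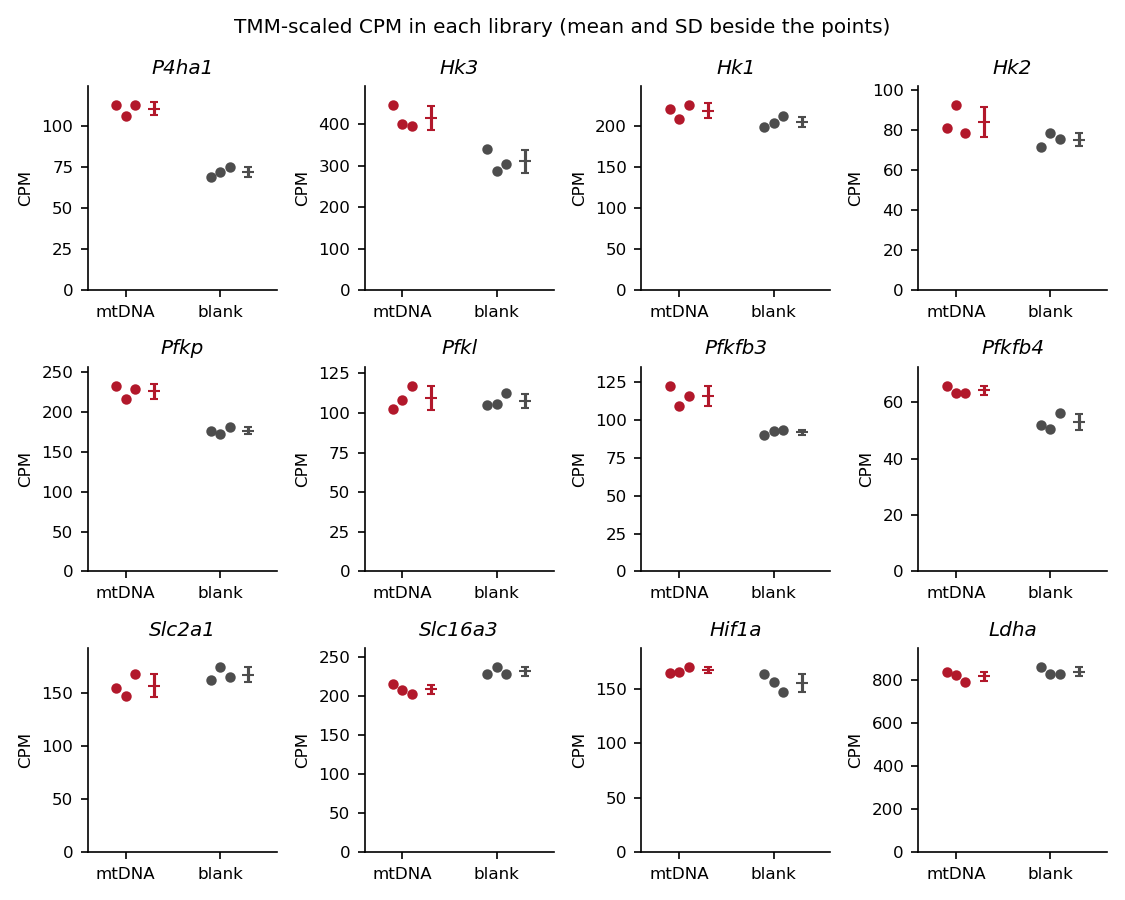
TMM-scaled CPM (y axis, from 0) of 12 members in each of the 3 mtDNA (red, left) and 3 blank (grey, right) libraries, with the mean and SD beside the points. P4ha1, Hk3, Pfkp, Pfkfb3 and Pfkfb4 show no overlap, while Slc2a1, Ldha, Pfkl, Hk1 and Hk2 overlap between groups. Hif1a (mtDNA above blank) and Slc16a3 (mtDNA below blank) show no overlap either, though neither was called.

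The enzymes of the remaining steps were abundant and differed little. Aldoa, which splits the 6-carbon sugar, and Pkm, which forms pyruvate, were the most abundant members per kilobase of exon, at 686 and 567 CPM per kilobase in mtDNA cells and 684 and 576 in blank cells. Gapdh, Ldha and Eno1 came next, with 320, 247 and 217 CPM per kilobase in mtDNA and 313, 253 and 215 in blank cells. Ldha, which makes lactate, and Eno1 change places when the longest coding transcript gives the length. In CPM, Aldoa had 2094, 1954 and 1945 in mtDNA libraries and 1992, 2039 and 1943 in blank libraries. Its groups overlapped almost wholly (log2 0.00 ± 0.044, edgeR adjusted p = 0.963).

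The 95% intervals of these enzymes were narrow. That of Gapdh ran from -0.07 to 0.12 on the log2 scale, that of Eno1 from -0.09 to 0.11, that of Pkm from -0.11 to 0.07 and that of Ldha from -0.13 to 0.06. The rises of Hk3 and Pfkp, at 0.42 and 0.36, lie outside these intervals, though a difference between genes was not itself tested. Gpi1, the isomerase, averaged 738 ± 15.6 CPM in mtDNA cells and 766 ± 10.8 CPM in blank cells (log2 -0.06 ± 0.045, edgeR adjusted p = 0.45). Pgk1 and Pgam1, the phosphoglycerate kinase and mutase, had log2 fold changes of 0.08 ± 0.051 and 0.10 ± 0.057 (edgeR adjusted p = 0.314 and 0.245). For both, all 3 mtDNA libraries were above the blank ones. Tpi1, triose phosphate isomerase, leaned the other way, with 403, 394 and 396 CPM in mtDNA libraries, against 416, 435 and 434 CPM in blank libraries. Its groups did not overlap, yet it was not called (log2 -0.11 ± 0.048, edgeR adjusted p = 0.133). Aldoc, the minor aldolase, made up 2.32% ± 0.0352 of aldolase reads per kilobase in mtDNA cells and 2.52% ± 0.207 in blank cells.

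Several of these genes have processed pseudogenes, and counts of reads that map to a single place can lose part of them. Of the 75-base windows of the longest transcript, 67.5% for Pgk1, 65.4% for Eno1, 40.6% for Pgam1, 22.8% for Gapdh and 19.6% for Pkm were found in transcripts of other genes. For Bnip3l and Bnip3 the shares were 18.7% and 15.3%. The levels of these 7 genes are therefore uncertain, and may be too low. The 5 genes that rose share no such window.

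Carriers of glucose and lactate leaned downward without a call. Slc2a1 and Slc2a3 encode the glucose transporters GLUT1 and GLUT3. Slc2a1 had 155, 147 and 168 CPM in mtDNA libraries and 162, 175 and 165 CPM in blank libraries, with overlapping groups (log2 -0.10 ± 0.062, edgeR adjusted p = 0.329). Slc2a3 averaged 40.7 ± 4.97 and 43.9 ± 2.34 CPM in mtDNA and blank cells (log2 -0.10 ± 0.099, edgeR adjusted p = 0.533). Slc2a1 took 88.9% ± 0.565 of the reads per kilobase of the pair in mtDNA cells and 88.7% ± 0.886 in blank cells.

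Slc16a3 encodes MCT4, the main exporter of lactate from glycolytic cells. It had 216, 208 and 203 CPM in mtDNA libraries, against 229, 238 and 229 CPM in blank libraries. Every mtDNA value was below every blank value, and the change stood just short of the threshold (log2 -0.15 ± 0.054, edgeR adjusted p = 0.0517). The call turned with the setting: limma-voom gave an adjusted p of 0.0416, the omission of mtDNA 1 gave 0.0398, and DESeq2 gave 0.202. Slc16a1, which encodes MCT1, had 16.6, 16.9 and 14.4 CPM in mtDNA libraries, against 18.6, 19.0 and 19.8 CPM in blank libraries (log2 -0.26 ± 0.13, edgeR adjusted p = 0.19). It too had no overlap between groups, at 65 to 95 reads per library.

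The oxygen-sensing genes were not called either. Hif1a had 165, 166 and 171 CPM in mtDNA libraries, against 164, 156 and 147 CPM in blank libraries. The mtDNA values were all above the blank ones, by less than 2 CPM at the nearest pair (log2 0.10 ± 0.059, edgeR adjusted p = 0.249). HIF1A is controlled mainly as a protein, which these counts do not measure. Egln1, the main prolyl hydroxylase that marks HIF1A, had 49.6, 52.7 and 48.3 CPM in mtDNA libraries, against 55.6, 56.1 and 55.1 CPM in blank libraries. Egln3, a hydroxylase that is itself induced by HIF, averaged 23.1 ± 1.48 CPM in mtDNA cells and 25.9 ± 0.756 CPM in blank cells (SD, n = 3 each). Both hydroxylases were lower in every mtDNA library than in any blank library, and neither passed the threshold (log2 -0.15 ± 0.080 and -0.17 ± 0.11, edgeR adjusted p = 0.228 and 0.345).

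Since most of these differences are small, the scaling between libraries decides how they are read. TMM factors were 0.947 to 0.966 in mtDNA libraries and 1.04 to 1.05 in blank libraries. Under library totals alone the median of all tested genes fell to -0.13, and 4 members were called higher and 11 lower, beside 7.69% and 21.1% of all genes. The 11 were Slc2a1, Slc16a1, Slc16a3, Gpi1, Aldoa, Aldoc, Tpi1, Pkm, Ldha, Egln1 and Ndrg1. With upper-quartile factors 4 members were higher and 5 lower, beside 8.67% and 13.4% of all genes. The 5 were Slc16a3, Gpi1, Tpi1, Egln1 and Ndrg1. P4ha1, Hk3, Pfkp and Pfkfb3 were called higher under all 3 scalings. Among members without a call, the sign turned from higher to lower for 6 with upper-quartile factors and for 11 with library totals, Hif1a, Hk1, Pgk1 and Pgam1 among the 11. The sum of the 16 glycolytic enzymes depends on it too. It was 10592 to 11242 CPM in mtDNA and 10691 to 10797 CPM in blank libraries with TMM. As a share of all counts it averaged 1.04% ± 0.0220 in mtDNA libraries and 1.11% ± 0.00875 in blank libraries, with no overlap.

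**Figure D4:**
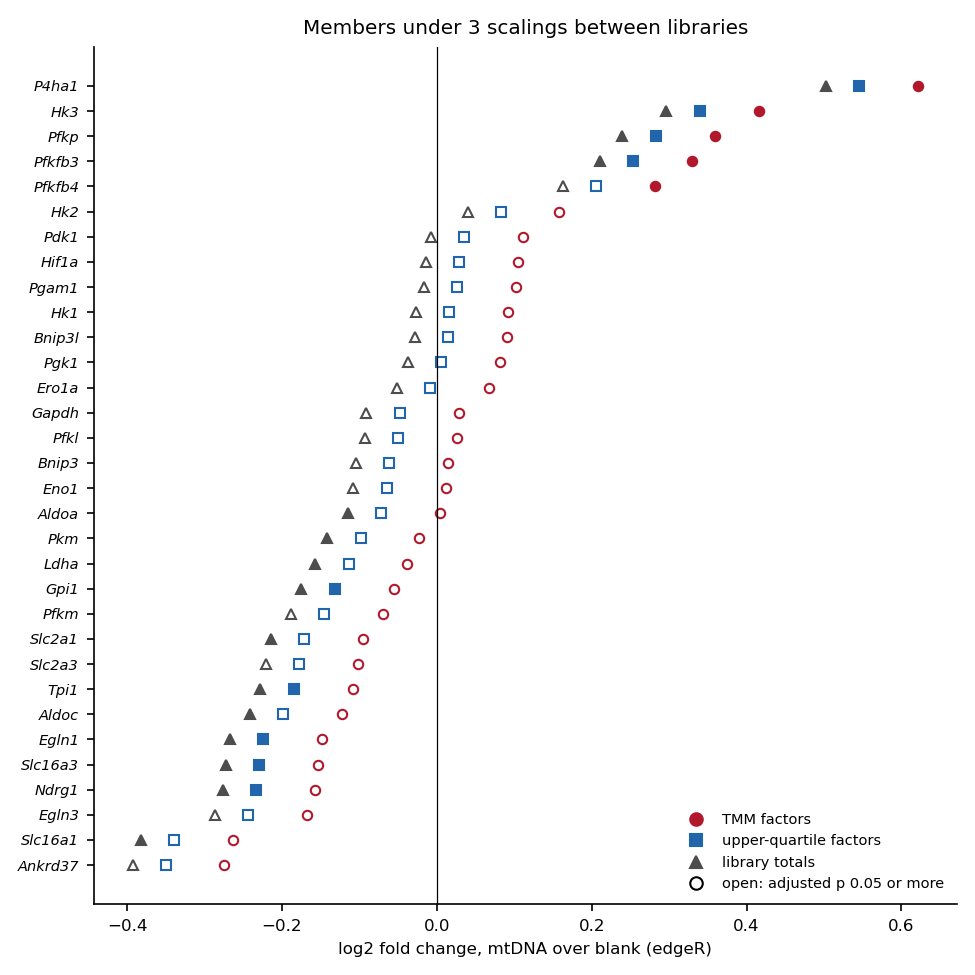
Log2 fold change of each member, mtDNA over blank (x axis), under TMM factors (red circles), upper-quartile factors (blue squares) and library totals (grey triangles), with filled symbols for an adjusted p under 0.05. Library totals shift all members to the left, so that 11 are called lower, while P4ha1, Hk3, Pfkp and Pfkfb3 stay filled on the right.

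Genes around the set, in 7 further lists, gave 11 rises and 8 falls among 107 tested genes, near the 11.9% and 5.98% of all tested genes called higher and lower. The other hypoxia targets had 5 rises and 0 falls among 25 tested genes, beside the same 11.9% and 5.98%, with a median log2 fold change of 0.05. Vegfa, the main angiogenic factor under HIF, had 41.7 ± 1.36 CPM in mtDNA cells and 29.8 ± 2.16 CPM in blank cells, and its 1.40-fold rise (edgeR adjusted p = 0.000847) was named after its values were seen. Plin2, a coat protein of lipid droplets, rose 1.39-fold and Dusp1, a phosphatase of MAP kinases, 1.49-fold (log2 0.47 ± 0.051 and 0.57 ± 0.084, edgeR adjusted p = 3.28e-07 and 2.31e-05). Both respond to signals other than oxygen as well. For the 0 falls of this list, 2 genes were lower at an unadjusted p under 0.05 and 0 in DESeq2 or limma-voom. Adm, a strong hypoxia target, had 2 reads in mtDNA and 1 in blank libraries, too few to show any difference.

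Among other HIF pathway components, 2 of 14 tested genes rose and 1 fell, near the 11.9% and 5.98% of all tested genes. Cited2, which competes with HIF1A for its coactivators, rose 1.28-fold (log2 0.36 ± 0.071, edgeR adjusted p = 0.000958), and Ep300, one of those coactivators, 1.17-fold (edgeR adjusted p = 0.0131). The call of Ep300 ended with upper-quartile factors (0.0856), with library totals (0.215), and without mtDNA 2, mtDNA 3 or blank 2. Egln2, a further prolyl hydroxylase, was lower (log2 -0.32 ± 0.097, edgeR adjusted p = 0.0259), but not in DESeq2 (adjusted p = 0.163), with the GC trend removed (0.125), or without mtDNA 2 (0.117), mtDNA 3 (0.132), blank 1 (0.0571) or blank 3 (0.106). Epas1, which encodes HIF2A, stayed below the filter with 17 reads in mtDNA and 22 in blank libraries. At the entry of pyruvate into mitochondria, 1 of 12 tested genes rose and 2 fell, beside the same 11.9% and 5.98%. Pdk3, a relative of Pdk1, had 135 ± 9.35 CPM in mtDNA cells and 85.2 ± 8.63 CPM in blank cells, a log2 rise of 0.66 ± 0.075 (edgeR adjusted p = 5.91e-07). Its change was of the size of that of P4ha1. Pdha1, a subunit of pyruvate dehydrogenase, and Pcx, pyruvate carboxylase, fell (log2 -0.24 and -0.53, edgeR adjusted p = 0.0214 and 0.0254). Neither call held in DESeq2 (adjusted p = 0.122 for Pdha1 and 0.206 for Pcx) or without mtDNA 1 (0.0814 and 0.0655), and that of Pdha1 was also lost without blank 3, and that of Pcx without mtDNA 3 or blank 1.

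**Figure D5:**
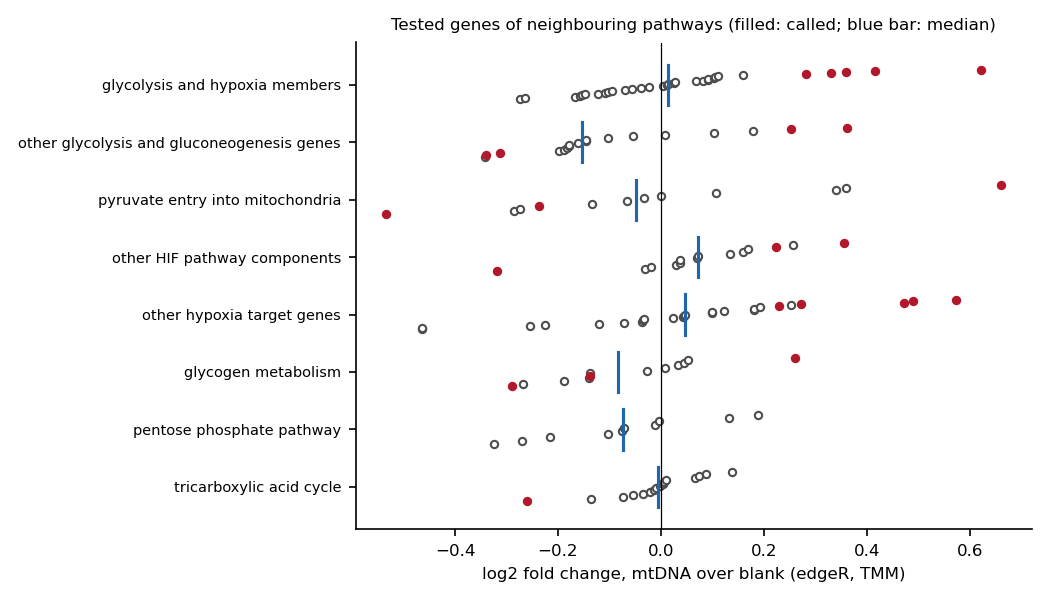
Log2 fold change, mtDNA over blank (x axis), of each tested gene of the set (top) and of the 7 neighbouring lists, with filled points for an adjusted p under 0.05 in either direction and a blue bar at the median. All called genes lie to the right in the set and among other hypoxia targets, and the medians lie between -0.15 and 0.07.

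Other glycolysis and gluconeogenesis genes gave 2 rises and 2 falls among 18 tested genes. Of all tested genes, 11.9% were called higher and 5.98% lower. Slc2a6, a lysosomal hexose carrier of myeloid cells, rose 1.28-fold to 208 ± 6.31 CPM in mtDNA cells, against 162 ± 8.79 CPM in blank cells (edgeR adjusted p = 7.69e-05). Adpgk, an ADP-dependent glucokinase, and G6pc3, a glucose phosphatase that neutrophils need, fell (log2 -0.31 and -0.34, edgeR adjusted p = 0.00136 and 0.0241). Adpgk kept its call in every alternative fit, while that of G6pc3 ended in DESeq2 (adjusted p = 0.217), with the GC trend removed (0.0626), and without mtDNA 2, mtDNA 3 or blank 3. Pgm1 passed narrowly (log2 0.25 ± 0.087, edgeR adjusted p = 0.0487), and its call ended in 11 of the 15 alternative fits. In glycogen metabolism 1 of 12 tested genes rose and 2 fell, beside the same 11.9% and 5.98%. Gyg, which primes glycogen, rose by log2 0.26 ± 0.065 (edgeR adjusted p = 0.00644), while Gys1, glycogen synthase, and Pygl, a glycogen phosphorylase, fell (log2 -0.29 and -0.14, edgeR adjusted p = 0.0311 and 0.041). The call of Gyg ended with library totals (adjusted p = 0.0913) and without blank 3 (0.0589). Those of Gys1 and Pygl ended in DESeq2 (0.189 and 0.0677) and without mtDNA 2 or blank 3, that of Gys1 also with the GC trend removed or without mtDNA 1, and that of Pygl without any 1 library other than mtDNA 1.

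The pathways that branch from glycolysis or follow it had few calls, beside 11.9% of all tested genes called higher and 5.98% lower. At such shares, lists of 10 and 16 genes hold only a few calls. In the pentose phosphate pathway 0 of 10 genes were called by edgeR or DESeq2, with 2 higher and 3 lower at an unadjusted p under 0.05 and 1 higher in limma-voom. The smallest p was that of Prps2, which makes phosphoribosyl pyrophosphate (log2 -0.32 ± 0.12, edgeR adjusted p = 0.0615). In the tricarboxylic acid cycle 1 of 16 genes fell and 0 rose, also 0 at an unadjusted p under 0.05. That gene was Idh3a, a subunit of isocitrate dehydrogenase (log2 -0.26 ± 0.083, edgeR adjusted p = 0.032), and its call ended in DESeq2 (0.269) and without any 1 library other than mtDNA 3. Over all the further lists 8 genes were called lower. The count was 1 in DESeq2, 2 without blank 3, 3 without mtDNA 2 and 5 without mtDNA 1. A gene called lower in such a fit need not be among the 8. The count called higher went from 11 to 8 in DESeq2 and to 7 without blank 3. With upper-quartile factors and library totals it went to 7 and 6, while the count called lower grew to 15 and 28.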

How the data were processed

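PolyA RNA of mouse MDSCs (3 mtDNA and 3 blank libraries) was read from a directional kit in single reads of 75 bases, per the labels' protocols. The table deposited by the authors holds raw counts per gene, as whole numbers. The submitters' processing notes list STAR 2.7.10a, GRCm39, FastQC and DESeq2. The headers match STAR's own gene counting, which leaves out reads that map to several places. Annotation release and strand setting: not given in the sources used here, so reads of overlapping antisense genes may be included.

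Of the 55359 IDs, 52083 matched a symbol in GENCODE M21 (GRCm38), which also gave exon lengths, GC content and shared 75-base windows. Because the counts were made on another build, no coordinates are given except those of the RefSeq promoter windows. Ero1a is listed there as Ero1l. Aldoa has another ID with 5 reads, left out.

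Counts were tested over all genes with edgeR 4.0.16 in R 4.3.3 (default filter, TMM factors, quasi-likelihood test, two-sided, Benjamini-Hochberg adjustment over 11190 genes, threshold 0.05). CPM are TMM-scaled, log2 fold changes are mtDNA minus blank, and intervals are 95%. A single read is worth 0.204 to 0.249 CPM. The alternatives tried were other factors (median-ratio, upper-quartile, none), no filter and 1 CPM in all 6 libraries, DESeq2 1.42.0, limma 3.58.1 (voom), a loess correction for GC content, neighbouring title numbers as a block, and omission of each library. The coding-transcript length was added after seeing the data. The edgeR fit was also run on counts simulated with its own fitted dispersions. That run served as a check of the code, and no result given here rests on it.

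The members and lists were chosen with earlier results of these data known. All members are named, and from each other list up to 2 risen and 2 fallen genes with the smallest p, or the smallest p alone. Ly6c2, Ly6g, S100a8, S100a9, Mmp8, Kdr, Cdh5, Pfkfb1, Pfkfb2, Vegfa, Adm and Epas1 were named after their values were seen.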

Additional observations from a re-analysis of the deposited data

How the results depend on the processing

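Of the 32 members, 5 were higher in the reported fit, and 4 or 5 under each alternative, the missing gene being Pfkfb4. The number lower was 0 in the reported fit, 5 with upper-quartile factors, 11 with library totals, 1 with limma-voom (Slc16a3) and 0 to 1 when a library was left out. Aldoa turned from log2 0.00 to -0.12 with library totals (adjusted p = 0.037), which follows from the shift of the median of all genes. Among genes of the other lists 11 were higher, but 7 with upper-quartile factors, 6 with library totals and 7 to 9 when a library was left out. There 8 were lower, but 15 with upper-quartile factors, 28 with library totals, 1 in DESeq2 and 2 to 6 when a library was left out. Over all genes 1327 were higher and 669 lower, against 861 and 2356 with library totals, 970 and 1504 with upper-quartile factors and 928 and 173 in DESeq2. Without mtDNA 1 and without blank 3 the falls were 437 and 410. Under the other settings these counts stayed within 1.5 times, and beyond the scalings the cause was not tested. The difference in the summed share of the glycolytic enzymes was -0.0773 percentage points, -0.0682 to -0.0895 when a library was left out, and -0.0852 without the 50 most abundant other genes.

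The labels do not say that neighbouring title numbers mark pairs. Deviations of such neighbours from their group means correlated at 0.0404 to 0.0449 across genes, too weakly to treat them as pairs, though each library correlated best with its own neighbour. With the replicate block 5 members were higher and 1 lower (Slc16a3, adjusted p = 0.0434). The thinly counted members Ankrd37 and Pfkm have wide intervals, from -0.75 to 0.20 and from -0.43 to 0.29 on the log2 scale.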
